A study of Rattus norvegicus with 9 samples.

Results

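The genes described here encode the protein subunits of the cytosolic ribosome, measured on arrays of cultured rat retinal ganglion cells that carried either of 2 forms of Set-β or a control protein. Transcript clusters (the array's units of measurement) with a single gene symbol were kept where the symbol was Rpl or Rps with a number, Rplp0 to Rplp2 or Rpsa, and kinases of the Rps6k family were left out. Where a gene had several clusters, the one with the highest mean over all arrays stood for it. This gave 55 genes of the 18166 genes with a single-symbol cluster, of which 37 belong to the large (60S) subunit and 18 to the small (40S) subunit. The rule used no difference between groups.

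All samples were retinal ganglion cells, the output neurons of the retina, taken from Sprague Dawley rats on postnatal day 4 and purified by immunopanning, in which cells are caught on a dish by an antibody to their surface. The groups are labelled here myr-SetB, electroporated with myr-Set-β, wt-SetB, electroporated with wild-type Set-β, and mCherry, electroporated with the red fluorescent protein mCherry as control. Every group also received pMAX-GFP, so the controls carried the electroporation and the green fluorescent protein too. Green cells were sorted the following morning and kept on laminin, and RNA was extracted 3 days after transfection, from 3 arrays per group and 9 in all. Set binds histones in the nucleus and inhibits the phosphatase PP2A, and a myristoyl group is a lipid that anchors proteins at membranes. The cells were transfected transiently, so expression of the construct varies from cell to cell, and no cluster was named Set in the annotation, so the level of the construct was not checked. The design asks what each form of Set-β does to the transcripts of ganglion cells and whether the 2 forms act differently.

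The ribosome translates mRNA into protein. Its small subunit reads the mRNA and its large subunit joins the amino acids and lets the growing chain out through a tunnel. Ribosomal protein mRNAs are among the most abundant of any cell and are made in step with each other, since the subunits need their proteins in fixed proportion. Most of them begin with a C followed by a run of pyrimidines, the terminal oligopyrimidine (TOP) motif, through which the kinase mTOR and the RNA-binding protein Larp1 set their translation and stability. In neurons, ribosomes and ribosomal protein mRNAs are also found in axons, and growing axons use local protein synthesis.

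The arrays did not all cover the same signal range, and this touches every value below. The distance between the lowest and the highest decile boundary of log2 intensity was 3.825, 4.183 and 4.46 in myr-SetB, 4.119, 4.21 and 4.144 in wt-SetB, and 4.544, 4.285 and 4.53 in mCherry. The authors set each array's median to an intensity of 100, which does not fix the range. The array with the narrowest range, myr-SetB replicate 1, also had the lowest median of the most abundant decile of clusters, 9.57. The 2 orders were not the same throughout. In wt-SetB, replicate 2 had a wider range than replicate 1, but its decile median was 10.01 against 10.05. All 15 ganglion cell markers listed were above the median of the array's odorant receptor clusters, taken as a background level, on all 9 arrays. The summed intensities of the glia, the microglia and the endothelial, mural and fibroblast markers were lowest on the array numbered 1 in each group. Those of the amacrine and horizontal and of the photoreceptor and bipolar markers were not. Single markers did not all follow these sums, and Aqp4, Cx3cr1 and Cdh5 were highest on replicate 1 within myr-SetB. Tagln, a smooth muscle and pericyte gene, had log2 intensities of 6.70, 12.01 and 12.59 in myr-SetB, 7.34, 11.89 and 11.89 in wt-SetB, and 7.93, 12.40 and 12.62 in mCherry. The summed intensity of the 9 endothelial, mural and fibroblast markers on the array was 1000, 7626 and 10957 in myr-SetB, 1002, 6948 and 7617 in wt-SetB, and 1080, 9650 and 11711 in mCherry. The 3 arrays numbered 1 therefore stood apart from the other 6, and the main results are given with and without them. Vim, an intermediate filament gene of glia and mesenchymal cells, split the same way, at 8.39, 7.84 and 8.60 on the arrays numbered 1 of myr-SetB, wt-SetB and mCherry, and between 11.15 and 12.13 on the others. It had the highest value of the glia markers on every array, so it weighed most in their sum. Of the 9 endothelial, mural and fibroblast markers 7 were above the odorant receptor median on all arrays, and the fibroblast gene Dcn was below it on all 9. Whether these cells took part in the ribosomal protein differences was not tested.

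Most of the 55 genes gave strong signals. Of these, 52 lay above the level filter, a mean log2 intensity of at least 6.654, and 44 of the 52 were in the most abundant decile of the 18343 clusters tested. The remaining 3 were Rpl5, Rpl27a and Rps9. The cluster of Rpl5, which with Rpl11 and the smallest ribosomal RNA forms the 5S particle, had a mean of 4.941 and lay below the odorant receptor median on all 9 arrays. This cluster therefore gave no level above background for Rpl5. Rps9, a protein of the mRNA entry side of the 40S subunit, had a mean of 5.595 and was below that median on 5 arrays, and Rpl27a, a 60S protein, had 6.282 and was below it on 1. Levels of different clusters depend on their probes and are not set against each other here.

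RefSeq lists 77 protein-coding rat genes with symbols of this form, and 22 of them had no single-symbol cluster. Of these, 13 were named only in clusters that carry several symbols, among them the stalk genes Rplp1 and Rpl12, the exit tunnel gene Rpl31 and the decoding gene Rps23. The other 9 were named in no cluster used here, among them Rps27a, which encodes a fusion of ubiquitin to a 40S protein, and Rps4x. In 18 of the 55 genes several clusters were available, up to 6 for Rpl39.

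The ribosomal protein genes moved together from array to array, and the arrays of myr-SetB lay further apart than the group means did. Their median log2 intensity was 10.22, 11.07 and 11.56 on the 3 arrays of myr-SetB, 10.78, 11.08 and 11.05 on those of wt-SetB, and 11.27, 11.36 and 11.68 on those of mCherry. As mean ± SD this was 10.95 ± 0.678 in myr-SetB, 10.97 ± 0.165 in wt-SetB and 11.44 ± 0.216 in mCherry (n = 3 each). The wt-SetB arrays all lay below the mCherry arrays, while myr-SetB spanned both, with replicate 1 the lowest of the 9 and replicate 3 the second highest.

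**Figure D1:**
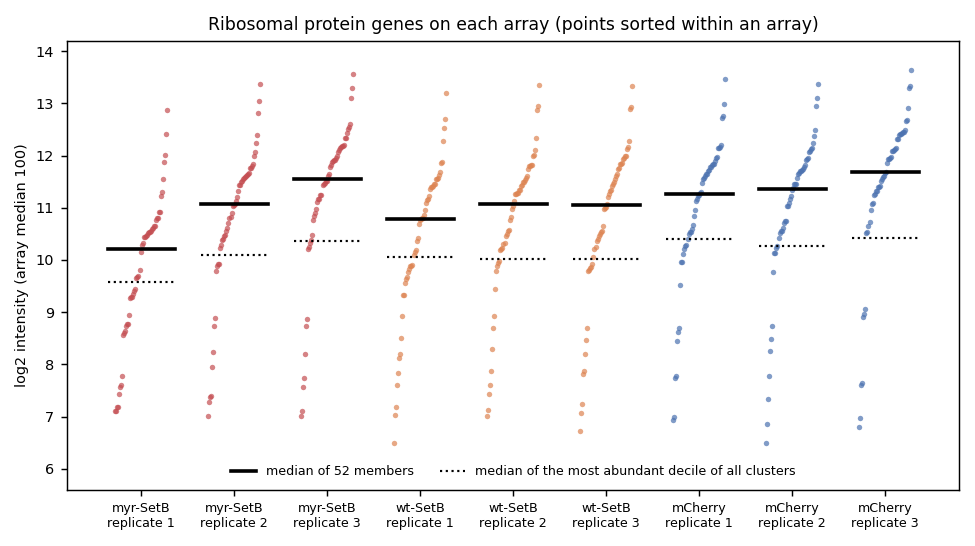
Log2 intensity (y axis, each array's median set to an intensity of 100) of the 52 ribosomal protein genes above the level filter on each of the 9 arrays (x axis). Points are genes, sorted within an array, the thick line is their median and the dotted line is the median of the most abundant decile of all clusters. The thick line is lowest on myr-SetB replicate 1 (10.22) and highest on mCherry replicate 3 (11.68).

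Of the 52 genes, 47 had their lowest value on myr-SetB replicate 1, where 36.9% of all clusters tested and 61.9% of the most abundant decile did. Likewise 44 had their highest value on mCherry replicate 3, against 18.3% of all clusters and 28.8% of that decile. With quantile normalization in place of the deposited scaling these counts were 41 and 37. With cyclic loess they were 14 and 29, and 32 genes were then lowest on wt-SetB replicate 1. Over the 9 arrays a gene's highest and lowest value lay 1.609 log2 units apart in the median. The median residual SD within groups was 0.469 for these genes, 0.458 for the most abundant decile and 0.335 for all clusters tested.

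**Figure D2:**
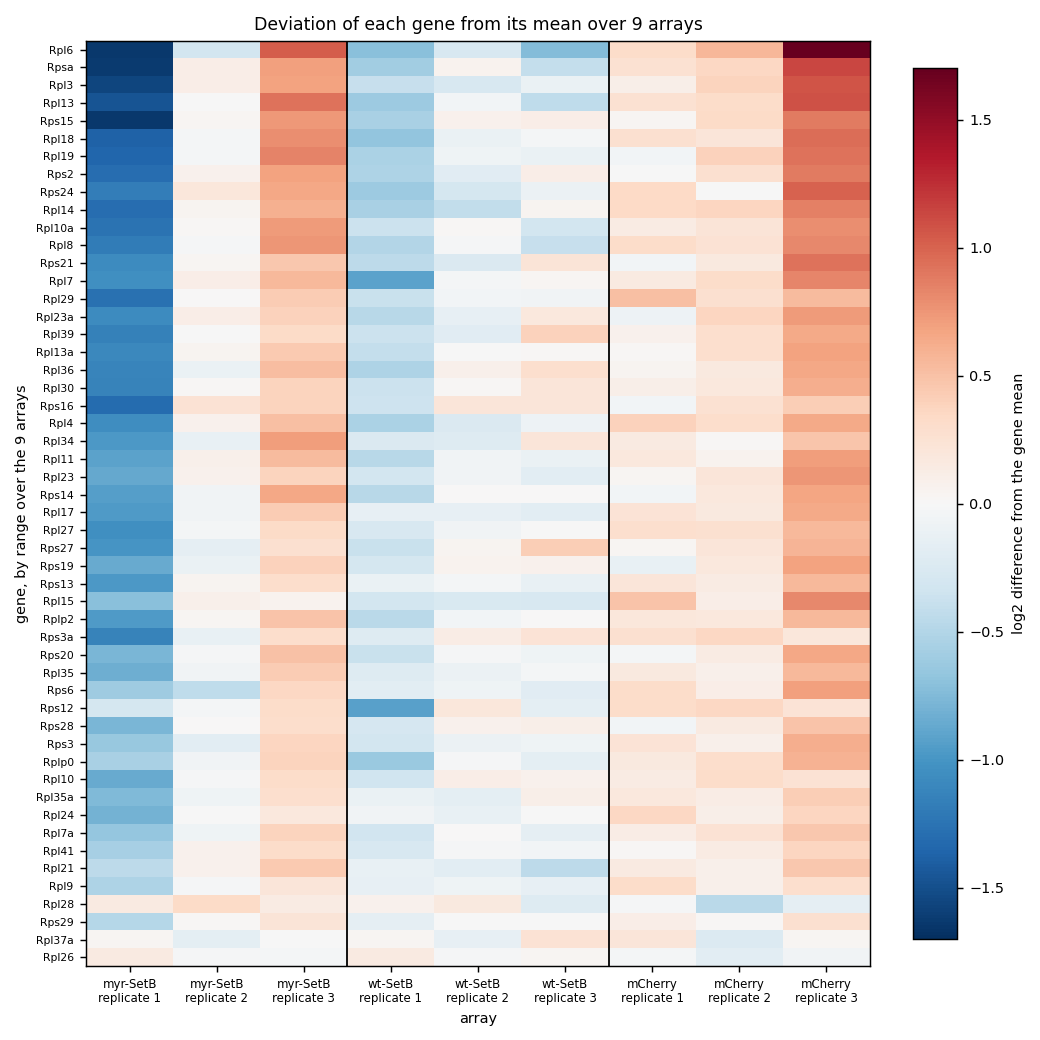
Difference of each of the 52 genes (rows, widest range at the top) from its own mean over the 9 arrays (columns), as log2 units, blue below and red above the mean. Nearly all rows are bluest on myr-SetB replicate 1 and reddest on mCherry replicate 3. Rpl28, Rpl37a and Rpl26 at the bottom do not follow that pattern.

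Set against other abundant transcripts of the same array, the replicate number came to the front. The median of the ribosomal protein genes minus the median of the most abundant decile was 0.652, 0.975 and 1.202 in myr-SetB, 0.735, 1.068 and 1.041 in wt-SetB, and 0.868, 1.108 and 1.251 in mCherry. In each group the array numbered 1 was the lowest, under both other scalings too. These are the arrays with low Tagln and Vim. The group means were 0.943 ± 0.277 in myr-SetB, 0.948 ± 0.185 in wt-SetB and 1.076 ± 0.194 in mCherry (SD, n = 3 each). The group means thus differed by less than the SD within a group.

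**Figure D3:**
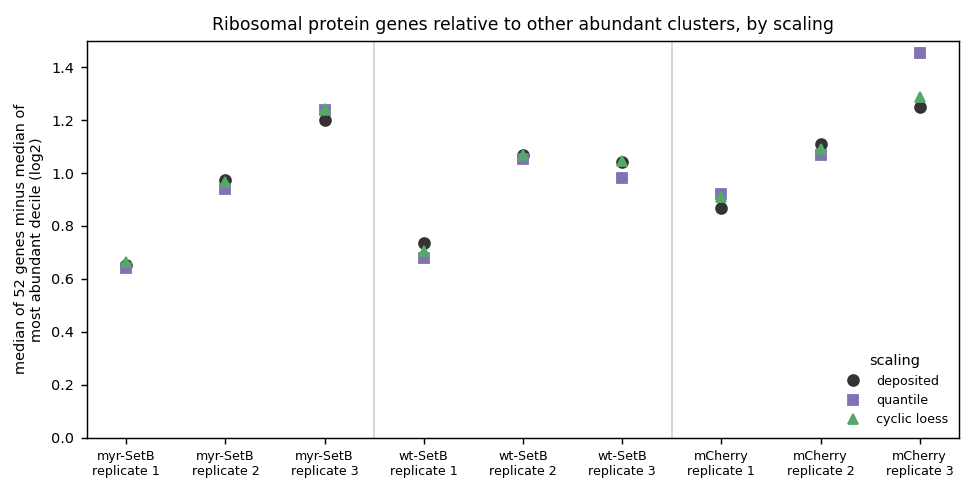
Median log2 intensity of the 52 ribosomal protein genes minus the median of the most abundant decile of clusters (y axis) on each array (x axis), with the deposited scaling (circles), quantile normalization (squares) and cyclic loess (triangles). In each group replicate 1 is the lowest, between 0.64 and 0.92 over the 3 scalings.

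No ribosomal protein gene passed the test in either comparison with mCherry. In myr-SetB minus mCherry, 50 of the 52 genes had a difference below 0, where 63.9% of all clusters did, and their median was -0.52 against -0.16 over all clusters and -0.47 over the most abundant decile. For wt-SetB minus mCherry, 49 of 52 were below 0, where 65.5% of all clusters were, and the median was -0.48 against -0.18 over all clusters and -0.41 over that decile. The ribosomal protein medians thus lay 0.05 and 0.07 log2 units below those of the other abundant transcripts. Both comparisons use the same 3 mCherry arrays, so they are not independent of each other.

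In limma, with Benjamini-Hochberg adjustment over all 18343 clusters, 0 of 52 genes and 0% of all clusters reached an adjusted p under 0.05 in myr-SetB minus mCherry. The smallest adjusted p among the genes was 0.447. At an unadjusted p under 0.05 limma gave 2 genes, where 9.79% of clusters passed. These were Rpl15, which was lower, as 6.92% of clusters were, and Rpl28, which was higher, as 2.87% were. The adjusted count for wt-SetB minus mCherry was again 0 of 52, with 0% of all clusters and a smallest adjusted p of 0.447. At an unadjusted p under 0.05 limma gave 3 genes, where 10.2% of clusters passed, and all 3 were lower, Rpl15, Rpl6 and Rplp0, where 7.13% of clusters were, and 0 higher, where 3.04% were. In this fit both counts were below the background share, but they rested on single arrays. Without myr-SetB replicate 3 the myr-SetB count was 37, or 71.2%, where 33.5% of all clusters passed. It was 0 without myr-SetB replicate 1 or without mCherry replicate 3. The wt-SetB count was 22, or 42.3%, without myr-SetB replicate 1, where 21.1% of clusters passed. It was 10, or 19.2%, without myr-SetB replicate 3, where 17.6% did, and 0 without mCherry replicate 3. It was 1 without wt-SetB replicate 1, wt-SetB replicate 3, myr-SetB replicate 2 or mCherry replicate 2, and the myr-SetB count was 1 without myr-SetB replicate 2, mCherry replicate 1, wt-SetB replicate 1 or wt-SetB replicate 2.

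Groups separated more often in one comparison than in the other, though the difference between the comparisons was not tested. In wt-SetB, 33 of the 52 genes, or 63.5%, lay below all mCherry arrays on every array, against 26.4% of all clusters. In the most abundant decile 668 of 1835 clusters did. The 33 genes were 26 of 35 of the 60S subunit and 7 of 17 of the 40S subunit. Their count depended on the scaling, with 6 genes after quantile normalization, where 11.7% of clusters did so, and 4 after cyclic loess, where 12.1% did. In myr-SetB, only Rpl15 was below all mCherry arrays on every array, against 6.85% of all clusters, and it no longer was with either other scaling. Without myr-SetB replicate 3, the array with the widest range of its group, 33 genes, or 63.5%, were, against 37.5% of all clusters. Leaving out an array can only keep or raise this count.

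The sizes rested on single arrays as well. The median difference in myr-SetB minus mCherry was -0.10 without myr-SetB replicate 1, -0.80 without myr-SetB replicate 3 and -0.34 without mCherry replicate 3. For wt-SetB it was -0.31 without mCherry replicate 3. Scaling moved them too, to -0.25 with quantile normalization and -0.08 with cyclic loess for myr-SetB, and to -0.21 and -0.14 for wt-SetB, while the median of all clusters moved to between -0.03 and -0.01. Without all 3 arrays numbered 1, the median was -0.19 in myr-SetB minus mCherry, with 48 of 52 genes below 0, and -0.45 in wt-SetB minus mCherry, with 49 below 0.

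Taken within a replicate number, 1 array against 1, the sign was the same each time and the size was not. In myr-SetB minus mCherry the median of the 52 genes was -1.14 for replicate 1, -0.22 for replicate 2 and -0.16 for replicate 3. The most abundant decile had -1.16, -0.17 and -0.07. For wt-SetB minus mCherry the genes had -0.47, -0.25 and -0.67, and the decile had -0.46, -0.25 and -0.45. The ribosomal protein median was thus close to that of other abundant transcripts in replicates 1 and 2.

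Ganglion cell markers also had lower group means than in mCherry, but their arrays were ordered differently. All 15 had differences below 0 in both comparisons, with medians of -0.50 in myr-SetB and -0.51 in wt-SetB, and their summed intensity was 7960, 11029 and 14298 in myr-SetB, 13240, 10593 and 7645 in wt-SetB, and 20207, 11730 and 14658 in mCherry. In wt-SetB and mCherry it was highest on replicate 1, where the ribosomal protein median was lowest of its group. The 6 amacrine and horizontal markers tested had medians of -0.28 in myr-SetB and -0.43 in wt-SetB, with 4 and 5 of them below 0. Of the 12 microglia and macrophage markers, 9 were tested, and 7 of the 9 had differences above 0 in each comparison, with summed intensities from 1688 to 3050 in myr-SetB, from 1665 to 2944 in wt-SetB and from 1701 to 2622 in mCherry. Their part in the result was not tested, and in bulk RNA fewer cells of a type and less RNA per cell cannot be told apart.

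**Figure D4:**
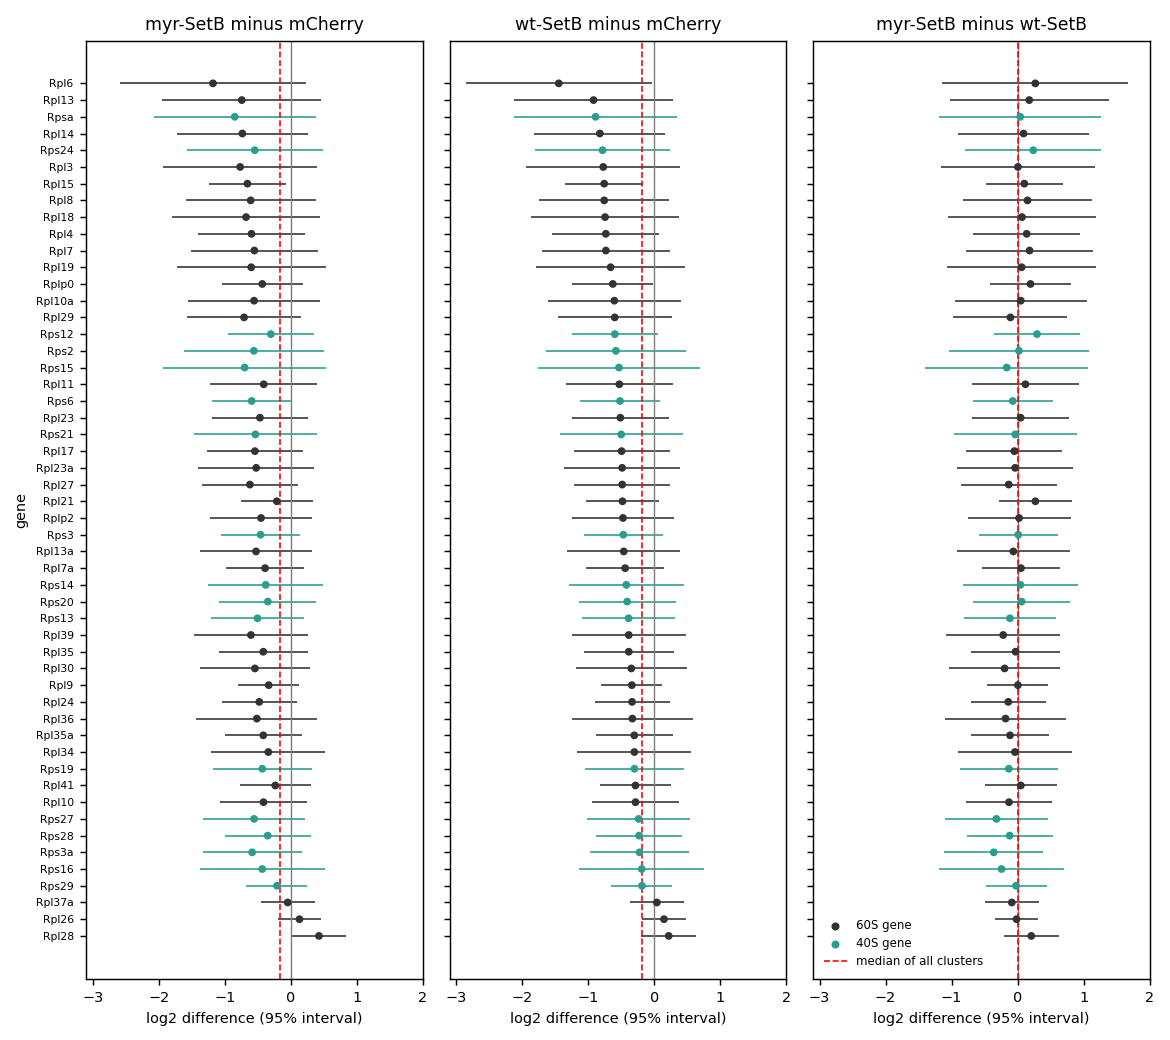
Log2 difference with its 95% interval (x axis) of each of the 52 genes (rows, ordered by wt-SetB minus mCherry) in the 3 comparisons, black for 60S and green for 40S genes. The grey line is 0 and the red dashed line is the median of all clusters tested. Most points lie left of the red line in both comparisons with mCherry, and all 52 intervals include 0 in myr-SetB minus wt-SetB.

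Among the large subunit proteins, the stalk recruits the translation factors that hydrolyse GTP. Rplp0, which forms the base of the stalk, had log2 intensities of 9.41, 9.89 and 10.33 in myr-SetB, 9.32, 9.94 and 9.79 in wt-SetB, and 10.12, 10.26 and 10.54 in mCherry. All wt-SetB arrays were below all mCherry arrays, while myr-SetB replicate 3 was inside their range. The difference was -0.44 ± 0.27 in myr-SetB minus mCherry and -0.63 ± 0.27 in wt-SetB minus mCherry (SE of the limma fit, here and below). For wt-SetB the unadjusted p was 0.0455 and the adjusted p 0.447. Rplp2, an acidic protein of the stalk, had 10.44, 11.44 and 11.89 in myr-SetB, 10.95, 11.35 and 11.41 in wt-SetB, and 11.60, 11.58 and 11.96 in mCherry. Here too the wt-SetB arrays were all lower than the mCherry arrays and myr-SetB overlapped them.

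Rpl11 binds Mdm2, the ubiquitin ligase of p53, when ribosome assembly is disturbed. It had 9.45, 10.45 and 10.90 in myr-SetB, 9.89, 10.30 and 10.25 in wt-SetB, and 10.54, 10.43 and 11.07 in mCherry. The highest wt-SetB array, 10.30, was just below the lowest mCherry array, 10.43, and the differences were -0.41 ± 0.36 in myr-SetB and -0.53 ± 0.36 in wt-SetB.

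Rpl3 lies near the peptidyl transferase centre, where peptide bonds form. It had 8.60, 10.28 and 10.85 in myr-SetB, 9.77, 9.89 and 10.06 in wt-SetB, and 10.26, 10.55 and 11.24 in mCherry. Its myr-SetB arrays spanned 8.60 to 10.85, wider than both other groups together. Rpl10, which joins the large subunit late in assembly, had differences of -0.42 ± 0.29 in myr-SetB and -0.28 ± 0.29 in wt-SetB. With cyclic loess the Rpl10 differences were 0.04 and 0.05, and in myr-SetB those of Rplp0 and Rpl11 were 0.03 and 0.05.

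Around the exit tunnel, Rpl4, whose loop lines the tunnel wall, had 9.69, 10.81 and 11.25 in myr-SetB, 10.20, 10.50 and 10.65 in wt-SetB, and 11.13, 11.04 and 11.39 in mCherry. The wt-SetB and mCherry arrays of Rpl4 did not overlap, and the differences were -0.60 ± 0.36 in myr-SetB and -0.74 ± 0.36 in wt-SetB. Rpl17, at the tunnel mouth, differed by -0.55 ± 0.32 in myr-SetB and by -0.50 ± 0.32 in wt-SetB. Rpl39, a small tunnel protein, differed by -0.61 ± 0.38 and by -0.39 ± 0.38. Rpl41, the smallest protein of the ribosome, differed by -0.24 ± 0.24 and by -0.29 ± 0.24, and its myr-SetB difference was 0.18 with cyclic loess.

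Rpl6, a 60S protein, varied most of all members. It had 7.57, 8.89 and 10.24 in myr-SetB, 8.50, 8.93 and 8.47 in wt-SetB, and 9.52, 9.77 and 10.96 in mCherry. The highest array was 10.5-fold above the lowest, and the wt-SetB arrays were all below the mCherry arrays. The difference was -1.18 ± 0.62 in myr-SetB and -1.45 ± 0.62 in wt-SetB, with an unadjusted p of 0.0453 and an adjusted p of 0.447 in limma for wt-SetB. Its second cluster gave -1.34 and -1.51.

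Rpl15, a 60S protein of the core near the tunnel, had the smallest p of the members in both comparisons. It had 7.44, 8.23 and 8.20 in myr-SetB, 7.83, 7.88 and 7.87 in wt-SetB, and 8.63, 8.26 and 8.96 in mCherry. Every array of both Set-β groups was below every mCherry array, though myr-SetB replicate 2, at 8.23, was close to mCherry replicate 2, at 8.26. The difference was -0.66 ± 0.26 in myr-SetB, with an unadjusted p of 0.0314, and -0.76 ± 0.26 in wt-SetB, with an unadjusted p of 0.0168. Both adjusted p-values in limma were 0.447.

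Of the other 60S genes with the smallest unadjusted p-values, Rpl27 differed by -0.62 ± 0.32, Rpl24 by -0.48 ± 0.25 and Rpl29 by -0.71 ± 0.38 in myr-SetB minus mCherry. Rpl21 differed by -0.48 ± 0.24 in wt-SetB minus mCherry. Rpl24, which bridges the subunits, had 10.81, 11.61 and 11.79 in myr-SetB against 11.96, 11.71 and 11.98 in mCherry. Its myr-SetB replicate 3 lay inside the mCherry range.

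In the small subunit, Rpsa, Rps2 and Rps3 sit where the mRNA enters or leaves. Rpsa, also known as the laminin receptor precursor, had 8.64, 10.39 and 10.97 in myr-SetB, 9.68, 10.33 and 9.87 in wt-SetB, and 10.53, 10.62 and 11.41 in mCherry. The wt-SetB arrays were all below the mCherry arrays, with a difference of -0.89 ± 0.54, and myr-SetB overlapped them, with -0.85 ± 0.54. Rps2 differed by -0.56 ± 0.47 in myr-SetB and by -0.58 ± 0.47 in wt-SetB, and Rps3 by -0.46 ± 0.26 and by -0.47 ± 0.26.

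Rps6 is the substrate of the S6 kinases, through which mTOR activity is often read. Its mRNA level had 7.78, 7.95 and 8.73 in myr-SetB, 8.20, 8.30 and 8.19 in wt-SetB, and 8.69, 8.49 and 9.07 in mCherry. All wt-SetB arrays were below all mCherry arrays, and of the myr-SetB arrays only replicate 3 was inside the mCherry range. The difference was -0.60 ± 0.27 in myr-SetB, with an unadjusted p of 0.0522, and -0.52 ± 0.27 in wt-SetB, with an unadjusted p of 0.0824.

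Rps15, which reaches into the decoding region, was 8.74, 10.41 and 11.12 in myr-SetB, 9.83, 10.45 and 10.49 in wt-SetB, and 10.41, 10.71 and 11.27 in mCherry. All 3 groups of Rps15 overlapped. Rps14 differed by -0.38 ± 0.38 in myr-SetB and by -0.42 ± 0.38 in wt-SetB, and Rps19, the gene most often mutated in Diamond-Blackfan anaemia, by -0.44 ± 0.33 and by -0.30 ± 0.33. With cyclic loess the signs turned for Rps14 in myr-SetB, at 0.07, and for Rps19 in both, at 0.01 and 0.02. Of the 12 tested genes on the Diamond-Blackfan anaemia list, a red cell disorder of ribosome assembly, 1 had an unadjusted p under 0.05 in each comparison with mCherry, and this was Rpl15. Of all clusters 9.79% and 10.2% did, so this count was not above the background. Rps12 had 7.11, 7.38 and 7.73 in myr-SetB, 6.49, 7.61 and 7.25 in wt-SetB, and 7.73, 7.77 and 7.64 in mCherry. Its wt-SetB difference was -0.60 ± 0.29. All wt-SetB arrays were below all mCherry arrays, with replicate 1 the furthest below, at 6.49, and replicate 2, at 7.61, close to mCherry replicate 3, at 7.64.

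Rpl28 and Rpl26 were above 0 in both comparisons with mCherry, and the cluster used for Rpl37a was near 0. Rpl28, a 60S protein, had 7.11, 7.28 and 7.10 in myr-SetB, 7.03, 7.12 and 6.73 in wt-SetB, and 6.93, 6.49 and 6.80 in mCherry. Every myr-SetB array was above every mCherry array, and the difference was 0.42 ± 0.18, with an unadjusted p of 0.0462 and an adjusted p of 0.447 in limma. Rpl26, which lies at the tunnel exit, had 7.19, 7.02 and 7.01 in myr-SetB, 7.19, 7.02 and 7.07 in wt-SetB, and 7.00, 6.86 and 6.98 in mCherry. Both Set-β groups were above mCherry on every array, by 0.13 ± 0.15 and 0.15 ± 0.15. These were the 2 members above mCherry without overlap in myr-SetB, where 4.55% of clusters were, and Rpl26 was the 1 such member in wt-SetB, where 7.31% were. Rpl37a, a zinc-binding 60S protein, had 7.60, 7.40 and 7.57 in myr-SetB, 7.60, 7.43 and 7.82 in wt-SetB, and 7.78, 7.34 and 7.60 in mCherry. Its differences were -0.05 ± 0.18 in myr-SetB and 0.04 ± 0.18 in wt-SetB. Another cluster annotated only with Rpl37a, but with the symbol repeated, fell outside the single-symbol rule. That cluster had a mean of 12.96 and differences of -0.45 in myr-SetB and -0.47 in wt-SetB, so the gene is not shown to be an exception. The clusters used for Rpl28, Rpl26 and Rpl37a had mean values of 6.955, 7.037 and 7.573, not far above the filter of 6.654, and the smallest residual SDs of the 52 genes.

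The TOP motif was looked for in RefSeq promoter windows of assembly GRCr8, which held 45 of the 55 genes and run from 250 bases before to 50 bases after the annotated start. A C at the annotated start followed by at least 4 bases that are C or T was found in 16 of the 45 genes, or 35.6%, and in 2.36% of 18954 other protein-coding genes. Beginning anywhere within 5 bases of that start, the pattern was found in 55.6% of the ribosomal protein genes and 16.3% of the others. Annotated starts can be off by a few bases, and a missing match says only that these letters are not there. The sequences below run from 30 bases before to 15 bases from the start. Shown are Rplp0 of the stalk, Rpl5 and Rpl11 of the 5S particle, the S6 kinase substrate Rps6 and the anaemia gene Rps19. Rpl28 and Rps3a are added, as each had the smallest p in a comparison and direction. Rpl15, with the smallest p among the lower genes in both comparisons with mCherry, had no window and is not shown. Capitals mark the C and the pyrimidines after it at the annotated start, and sequences without capitals have no such run there.
Rplp0: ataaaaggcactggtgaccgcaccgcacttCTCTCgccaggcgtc
Rpl28: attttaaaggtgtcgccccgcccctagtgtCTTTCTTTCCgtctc
Rps3a: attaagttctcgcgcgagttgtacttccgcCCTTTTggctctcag
Rpl11: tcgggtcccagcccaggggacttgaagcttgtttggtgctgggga
Rps6: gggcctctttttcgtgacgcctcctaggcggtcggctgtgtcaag
Rps19: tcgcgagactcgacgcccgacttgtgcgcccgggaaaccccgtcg
Rpl5: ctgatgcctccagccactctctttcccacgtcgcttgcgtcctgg
They lie at chr12:46718376-46718420 (minus strand) for Rplp0, chr1:78083518-78083562 (minus) for Rpl28, chr2:173827028-173827072 (minus) for Rps3a, chr5:153560788-153560832 (minus) for Rpl11, chr5:106420526-106420570 (minus) for Rps6, chr1:89608658-89608702 (plus) for Rps19 and chr14:1995211-1995255 (minus) for Rpl5. Rplp0 and Rps3a have the pattern at the annotated start, and Rps6 and Rpl11 do not have it there. These genes all had negative differences from mCherry, while Rpl28, with a run of 10, did not.

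Genes with and without the pattern exactly at the annotated start had similar differences. The 16 genes with it there had medians of -0.49 in myr-SetB and -0.39 in wt-SetB. The 27 tested genes with a window but no pattern at that base had -0.51 and -0.50. Some of these 27, such as Rpl4 and Rpl13, have the pattern within 5 bases of the start. The split therefore does not separate genes with a TOP motif from genes that lack it. A pair of short motifs of ribosomal protein promoters was counted on either strand of the whole window, the ETS core CCGGAAG and the YY1 core AAGATGG. The first was in 28.9% of the 45 genes and 11.2% of the other genes, and the second in 17.8% and 7.56%. A match is a description of the sequence and not evidence of binding.

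No ribosomal protein gene separated myr-SetB from wt-SetB, and the precision was limited. The median difference, myr-SetB minus wt-SetB, was 0.003 over the 52 genes and 0.006 over all clusters, with 25 genes below 0, where 48.5% of clusters were. In limma 0 genes and 0% of clusters reached an adjusted p under 0.05, and 0 genes reached an unadjusted p under 0.05, where 1.13% of clusters did, 0.567% lower and 0.567% higher. The groups did not overlap in 0 genes, against 1.76% of clusters lower and 2.63% higher. All 52 of the 95% intervals included 0, and 33 lay within 1 log2 unit either way (the other genes' intervals reach beyond it). The widest bounds were -1.397 for Rps15 and 1.677 for Rpl6.

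That median rested on the scaling and on single arrays. With quantile normalization it was 0.001, with 26 genes below 0. With cyclic loess it was 0.12, with 14 genes below 0, where 47.4% of all clusters were. On the deposited scaling it was 0.38 without myr-SetB replicate 1, and without myr-SetB replicate 3 its sign turned, to -0.35. Within a replicate number it was -0.60 for replicate 1, 0.05 for replicate 2 and 0.48 for replicate 3, with 47, 19 and 4 of the 52 genes below 0. Without all 3 arrays numbered 1 it was 0.26, with 4 genes below 0, and 0.10 over all clusters. The largest single differences were -0.36 ± 0.33 for Rps3a, which had 10.76, 11.77 and 12.20 in myr-SetB against 11.68, 12.02 and 12.13 in wt-SetB, and -0.32 ± 0.34 for Rps27. At the other end Rps12 had 0.29 ± 0.29 and Rpl21 0.27 ± 0.24. In each of these genes the arrays of the groups overlapped.

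Genes that make or regulate ribosomes were measured in the same fit, and none reached an adjusted p under 0.05 in limma. Of 38 ribosome biogenesis genes, 7 in myr-SetB and 9 in wt-SetB were lower at an unadjusted p under 0.05, where 6.92% and 7.13% of all clusters were. The medians were -0.39 and -0.50, against -0.16 and -0.18 over all clusters and -0.47 and -0.41 over the most abundant decile. Nop56, a core protein of the particles that methylate ribosomal RNA, had 8.37, 8.91 and 9.45 in myr-SetB, 9.19, 9.15 and 8.84 in wt-SetB, and 9.91, 9.33 and 9.79 in mCherry. All wt-SetB arrays were below all mCherry arrays, and the myr-SetB difference was -0.76 ± 0.29, with an unadjusted p of 0.026. Ncl, the nucleolar protein nucleolin, differed by -0.60 ± 0.30 in myr-SetB and by -0.83 ± 0.30 in wt-SetB, with an unadjusted p of 0.0219 for wt-SetB. Nip7, which acts in 60S assembly, differed by 0.44 ± 0.30 in myr-SetB minus wt-SetB.

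Of 17 genes of RNA polymerases I and III, which transcribe ribosomal RNA, 2 in myr-SetB and 0 in wt-SetB were lower at that threshold, where 6.92% and 7.13% of all clusters were, and the medians were -0.30 and -0.39. Polr3d, a polymerase III subunit, differed by -0.74 ± 0.26 in myr-SetB, with an unadjusted p of 0.0202. Of 17 mTOR and TOP control genes, 1 was lower in each comparison with mCherry, a share no higher than the 6.92% and 7.13% of all clusters, and the medians were -0.46 and -0.40. The genes were Eif4ebp2, which blocks cap-dependent initiation and differed by -0.57 ± 0.24 in myr-SetB, and Pdcd4, an inhibitor of the helicase Eif4a, which differed by -0.90 ± 0.31 in wt-SetB. Ddit4, a stress-induced inhibitor of mTOR, differed by -0.61 ± 0.23 in myr-SetB minus wt-SetB, with an unadjusted p of 0.0248 and an adjusted p of 0.9998.

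The 16 other TOP transcripts tested, mostly elongation and initiation factors, had differences below 0 in all 16 cases in both comparisons, with medians of -0.65 in myr-SetB and -0.59 in wt-SetB. At an unadjusted p under 0.05 there were 0 of 16 in either. In wt-SetB 13 of the 16 were below all mCherry arrays on every array, where 26.4% of all clusters were. In the most abundant decile 668 of 1835 clusters were. The count of 13 became 7 with quantile normalization, where 11.7% of clusters were, and 4 with cyclic loess, where 12.1% were. Eef1g, an elongation factor subunit, had 10.82, 11.44 and 11.56 in myr-SetB, 11.21, 11.13 and 11.25 in wt-SetB, and 11.50, 11.65 and 11.94 in mCherry. Eif3h, an initiation factor subunit, differed by -0.74 ± 0.35 in myr-SetB and by -0.67 ± 0.35 in wt-SetB. Fau, whose product is cut into a ubiquitin-like protein and a 40S protein, differed by -0.65 ± 0.36 and by -0.63 ± 0.36.

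Of 6 genes of the p53 and ribosomal stress list, 2 were lower at an unadjusted p under 0.05 in myr-SetB and 1 in wt-SetB, where 6.92% and 7.13% of all clusters were, with medians of -0.56 and -0.47. Ccng1, a p53 target, had 9.62, 10.16 and 10.87 in myr-SetB, 10.66, 10.37 and 10.44 in wt-SetB, and 11.15, 10.71 and 11.11 in mCherry. Its difference was -0.78 ± 0.30 in myr-SetB, with an unadjusted p of 0.0294. Mdm4, an inhibitor of p53, differed by -0.92 ± 0.35 in myr-SetB, and Nop53, a nucleolar protein, by -0.79 ± 0.32 in wt-SetB.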

How the data were processed

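Gene expression was measured on 9 Affymetrix rat gene arrays, 3 per group. Per the series' design text, a whole-transcriptome amplification kit was used before labelling. Per the submitters' processing notes the authors used Affymetrix Expression Console and RMA, which corrects background, normalizes arrays and summarises probes. Per the design text the authors then scaled each array to its median, and the deposited values are linear intensity values. This step fixes an array's middle and leaves its spread free. The array's genome build was not given in the sources used here.

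The deposited intensities were converted to log2 and all 9 arrays were fitted as group means with limma 3.58.1 in R 4.3.3 (lmFit and eBayes, two-sided). A cluster was tested if its mean was at or above the median cluster mean (6.654), as 18343 of 36685 were. Adjusted p-values are Benjamini-Hochberg values over these, called at 0.05. The fit was also run on simulated data with independent noise per cluster and known shifts. That simulation held no deviation shared by the clusters of an array, so it cannot show how the fit handles such deviations here. Of all clusters, 18511 carried 1 symbol, 575 several and 17599 none in the platform annotation, and 53 of the 55 genes matched the RefSeq table.

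The genes and lists were chosen with earlier results of these data known. Named genes were those with listed roles, per comparison and direction the 6 of smallest unadjusted p, the 3 of largest and 3 of smallest residual SD, those with clusters of opposite sign, those below the filter, and of each pathway list the gene of smallest p. Tagln and Vim were named after their values were seen. The titles call the arrays biological replicates without saying that they came from separate litters or cultures, so p-values reflect only the spread among the arrays at hand, possibly technical, and the number of arrays limits the precision. Replicate numbers were not treated as pairs in the main fit, since same-numbered arrays did not all deviate together. The arrays numbered 1 did stand apart in marker levels, and a fit with the replicate number as a block is given below. Alternatives were other scalings, filters, array sets, a replicate block, array weights and cluster means. Default array weights did not converge, and the gene-by-gene method was used.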

Additional observations from a re-analysis of the deposited data

How the results depend on the processing

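No ribosomal protein gene reached an adjusted p under 0.05 in any of the 3 comparisons under any alternative run, in limma. The median difference in myr-SetB minus mCherry ranged from -0.80 to -0.10 with 1 array left out and was -0.078 with cyclic loess. In wt-SetB minus mCherry it ranged from -0.55 to -0.31, and in myr-SetB minus wt-SetB from -0.35 to 0.38, with 1 array left out.

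The number of genes at an unadjusted p under 0.05 moved most. In myr-SetB minus mCherry it was 2, where 9.79% of all clusters passed. It was 1 with quantile normalization (8.4% of all clusters), cyclic loess (9.19%) or a filter at the 75th percentile (9.18%). It was 0 with only the 2 groups fitted (4.86%) or without the arrays numbered 1 (2.69%), an alternative chosen after seeing the data. Array weights gave 7 (20.7%). With 1 array left out it was 0 to 37 (3.5% to 33.5% of all clusters). The 37 genes, or 71.2%, came without myr-SetB replicate 3, where 33.5% of all clusters passed. In wt-SetB minus mCherry it was 3 (10.2% of all clusters), and 0 with quantile normalization (7.46%). With only the 2 groups fitted it was 26, or 50% of the genes, against 23.2% of all clusters. With array weights it was 24, or 46.2%, against 25.6%. Without the arrays numbered 1 it was 6 (9.37% of all clusters), and with 1 array left out 0 to 22. It was 0 without mCherry replicate 3 (5.41%) and 22, or 42.3%, without myr-SetB replicate 1, where 21.1% of all clusters passed. In myr-SetB minus wt-SetB it was 0 (1.13% of all clusters), 1 with cyclic loess (1.38%) and 0 to 4 with 1 array left out. The 4 genes, or 7.69%, came without myr-SetB replicate 1, where 4.54% of all clusters passed. The count of genes lower on every array was also chosen after seeing the data. In myr-SetB minus mCherry it was 0 under both other scalings, where 6.27% and 6.18% of all clusters were. It was 1 to 33 with 1 array left out, where 8.54% to 37.5% of all clusters were. In wt-SetB minus mCherry it was 6 and 4 with those scalings (11.7% and 12.1% of all clusters). With 1 array left out it was 33 to 42, where 29.2% to 40.4% of all clusters were. Leaving out an array can only keep or raise this count, so these ranges are no check of its stability.

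With the replicate number as a block, 8 genes (15.4%) in myr-SetB minus mCherry and 6 (11.5%) in wt-SetB minus mCherry had an unadjusted p under 0.05. In the same limma fit 9.56% and 10.6% of all clusters did. Same-numbered arrays correlated from -0.069 to 0.383 in their deviations from the group means. Of these pairs only mCherry replicate 1 with myr-SetB replicate 1 was below 0. Differently numbered arrays of different groups correlated from -0.40 to 0.36, with values of either sign. The numbers were not taken as pairs in the main fit, though a part shared by same-numbered arrays is not excluded.

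Some single differences changed sign. In myr-SetB minus mCherry with cyclic loess these were Rpl10 (0.04), Rpl11 (0.05), Rpl41 (0.18), Rplp0 (0.03), Rps14 (0.07) and Rps19 (0.01), and in wt-SetB minus mCherry Rpl10 (0.00 with quantile normalization, 0.05 with cyclic loess) and Rps19 (0.02 with cyclic loess). In myr-SetB minus wt-SetB, array weights gave 0.02 for Rpl24 and 0.05 for Rps16, and without the arrays numbered 1 the values were 0.15 for Rpl24, 0.09 for Rpl30, 0.06 for Rpl39 and 0.11 for Rps16. With 1 array left out, myr-SetB minus mCherry spanned 0 for Rpl41 (-0.43 to 0.01) and Rps14 (-0.77 to 0.03), and wt-SetB minus mCherry for Rpl37a (-0.08 to 0.14). In myr-SetB minus wt-SetB it did so for Rpl24 (-0.34 to 0.15), Rpl30 (-0.51 to 0.25), Rpl39 (-0.52 to 0.22), Rps16 (-0.55 to 0.29), Rps27 (-0.61 to 0.03), Rps3a (-0.67 to 0.04), Rpl6 (-0.40 to 0.93), Rplp0 (-0.03 to 0.43), Rps24 (-0.15 to 0.77) and Rps12 (-0.02 to 0.54). The cause of these changes was not tested. The other 1007 of 1037 single-gene values kept their sign, and no value crossed an adjusted p of 0.05. At an unadjusted p of 0.05, 99 of the 1037 changed side.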

Other observations

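Clusters outside the symbol rule gave similar values. The 30 several-symbol clusters that name a ribosomal protein gene include the cluster with Rpl37a repeated. These 30 had median differences of -0.48 in myr-SetB minus mCherry, -0.43 in wt-SetB minus mCherry and -0.02 in myr-SetB minus wt-SetB, with 27, 28 and 18 of them below 0. The 76 tested clusters with symbols of ribosomal protein pseudogenes or paralogs had medians of -0.44, -0.51 and 0.03, with 60, 59 and 33 below 0. Such clusters can share probes or near-identical sequence with the genes described above, so they are not independent of them.

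In 6 genes, Rpl10, Rpl41, Rplp2, Rps14, Rps19 and Rps28, different clusters of the same gene had opposite signs in myr-SetB minus wt-SetB. The second cluster of Rps28 was below the odorant receptor median on all 9 arrays, so its sign carries no level above background. No gene had single-symbol clusters of opposite sign in the comparisons with mCherry. Outside the rule, the cluster with Rpl37a repeated was at -0.47 in wt-SetB minus mCherry, where the cluster used was at 0.04.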
